A study of Homo sapiens with 4 samples.

Results

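The 4 genes examined are RN7SL1, RN7SL2 and RN7SL3, which encode 7SL, the RNA of the signal recognition particle, and RN7SK, which encodes the nuclear 7SK RNA. They were picked by their gene symbols from the 62700 genes of the count table. Fragments were counted for RN7SL1 and RN7SL3 in every library. RN7SL2 and RN7SK were listed at 0 in all 4 libraries, so 2 of the 4 genes carry measurements.

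The libraries came from HEK293T cells, a human embryonic kidney line, here a derivative that the labels call a stable clone. The cells carried a V5-tagged PRADA construct for labelling nearby molecules, placed in the mitochondrial matrix and expressed from the CMV promoter. Both groups received 100 µM 4-thiouridine (s4U, a uridine analogue that enters new RNA) for 5 h, then 0.5 mM alkyne phenol together with s4U for 30 min. The labelled group (titled 4SU+AP+DF, 2 libraries) was then given 10 mM D-amino acid for 30 min, and the unlabelled group (titled 4SU+AP, 2 libraries) was not. Ribosomal RNA was depleted from all 4. The series text calls the material labelled and enriched, the sample labels give total RNA, and whether these 4 libraries hold enriched RNA or input was not settled from either. The titles give biological replicates without saying how cultures were separated, so the p-values below measure the spread between these libraries.

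7SL RNA is the scaffold of the signal recognition particle, a cytosolic complex that binds signal peptides emerging from ribosomes and brings those ribosomes to the endoplasmic reticulum. 7SK RNA holds the kinase P-TEFb in an inactive nuclear particle with HEXIM1, LARP7 and MEPCE and so restrains transcription elongation by RNA polymerase II. Both are short, abundant and structured, both are made by RNA polymerase III, and neither is encoded by the mitochondrial chromosome.

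The 3 RN7SL genes are nearly alike in sequence, and this likeness decides which fragments could be counted for each. They were compared as GENCODE 29 transcripts, whose lengths are the same in the count table.

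RN7SL1 (ENSG00000276168, GRCh38 chr14:49586580-49586878, plus strand) is a gene of 1 exon and 299 bases. RN7SL3 (ENSG00000278771, chr14:49853616-49853914, minus strand) also has 299 bases. RN7SL1 and RN7SL3 were identical at 292 of 299 bases (97.7%). RN7SL2 (ENSG00000274012, chr14:49862550-49862849, minus strand, 300 bases) was identical to RN7SL1 in 295 of 300 aligned positions (98.3%).

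This likeness limits unique alignment, because fragments that map equally well to several places were not counted. Of the 250 windows of 50 bases in RN7SL1, 39 (15.6%) had no exact copy, on either strand, in the GENCODE 29 transcript of a gene elsewhere. 158 of the 250 recurred in RN7SL2 and 86 in RN7SL3. Slightly more of them recurred in the pseudogene RN7SL5P than in RN7SL2. In RN7SL3, 162 of 250 windows (64.8%) had no copy elsewhere. With windows of 150 bases, 34.0% of those in RN7SL1, 34.4% in RN7SL2 and 100% in RN7SL3 had none. RN7SL1 therefore kept fewer distinguishing windows than RN7SL3 at each length tried. The sources used here do not state the read length, and transcripts stood in for the genome, so these shares describe the sequences and not the loss of fragments.

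**Figure D1:**
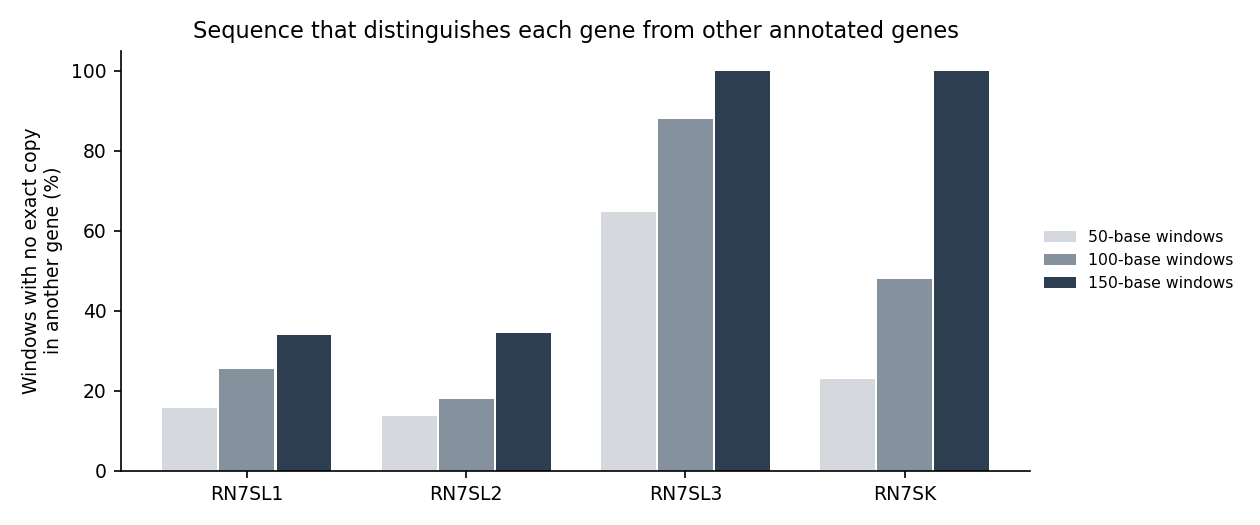
Percent of sequence windows (y axis) of 50, 100 and 150 bases (shades) in each gene (x axis) that have no exact copy in the GENCODE 29 transcript of a gene at another place. RN7SL1 and RN7SL2 stay at or below 34.4% for every window length, while RN7SL3 and RN7SK reach 100% at 150 bases.

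RN7SL2 and RN7SK shared a second feature, an exon that lies wholly inside another annotated gene. All 300 bases of RN7SL2 fall in exons of the unnamed gene ENSG00000282885 on the same strand, which itself held 16, 15, 11 and 11 fragments in unlabelled replicates 1 and 2 and labelled replicates 1 and 2. All 328 bases of RN7SK (ENSG00000283293, chr6:52995621-52995948, plus strand) lie inside a second record of the same RNA, named 7SK (ENSG00000202198), which was also listed at 0 in all 4 libraries. A uniquely aligned fragment in RN7SL2 or RN7SK thus also lies in the covering gene. Under the counting used such a fragment is ambiguous and goes to neither. In the whole table, all 2235 genes whose exon bases lie inside exons of 1 other gene were at 0 in the 4 libraries. The zeros are therefore set by the annotation and carry no information on how much RN7SL2 or RN7SK RNA was present, and no fold or limit is given for them. RN7SL1 and RN7SL3 share no exon base with another gene in the table.

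The first 300 of the 328 bases of RN7SK are shown, 5′ to 3′ with T for U and no capitals, as the RNA that this table cannot count. Of its 279 windows of 50 bases, 215 recurred in a gene elsewhere, 96 of them in the pseudogene RN7SKP71 and 94 in RN7SKP203, but with 150 bases 0 of 179 did.
RN7SK: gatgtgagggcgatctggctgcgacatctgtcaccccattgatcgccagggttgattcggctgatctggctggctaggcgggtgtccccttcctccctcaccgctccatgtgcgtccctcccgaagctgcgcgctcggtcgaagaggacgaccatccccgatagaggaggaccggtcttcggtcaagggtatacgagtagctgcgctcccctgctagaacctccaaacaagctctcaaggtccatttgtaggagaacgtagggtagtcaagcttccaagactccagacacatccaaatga

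Assigned fragments numbered between 5771795 (unlabelled replicate 2) and 12287451 (labelled replicate 2). Mitochondrial transcripts made up 9.04% and 10.4% of them in unlabelled and 27.0% and 30.9% in labelled libraries, which lowers the share left for every other RNA. Ambiguous fragments amounted to 12.8, 14.7, 10.2 and 9.92 per 100 assigned, in the library order used above. Any uniquely aligned fragment from RN7SK or RN7SL2 would fall in this class. That class also holds fragments from every other overlapping gene. Multi-mapped alignment records stood at 277, 124, 64.6 and 130 per 100 assigned. Fragments of RN7SK or RN7SL2 that align equally well elsewhere would be among these. Fragments outside annotated exons numbered 5601831, 6085785, 5117796 and 6080423 in the same order. Only in unlabelled replicate 2 did they outnumber the assigned fragments. All 7 markers chosen for HEK293 cells had fragments, with a summed level of 203.4 to 307.0 CPM (counts per 1000000 assigned fragments). Markers of blood, endothelium and liver each summed to at most 1.73 CPM in any library, with 2 of 4 blood markers at 0 throughout. The fibroblast markers summed to 13.5 to 21.3 CPM with 2 of 3 at 0 and COL1A1 holding the rest. After scaling between libraries (TMM, described below), the HEK293 marker VIM stood at 179 to 216 CPM, PAX2 at 8.90 to 13.6 and NEFM at 0.445 to 2.50. COL1A1, at 11.8 to 20.5, was above PAX2 and NEFM in every library.

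RN7SL1 was the most abundant nuclear gene of the table in all 4 libraries, both by fragments and by fragments per base. It held 118544 fragments in unlabelled replicate 1, 149766 in unlabelled replicate 2, 85725 in labelled replicate 1 and 117709 in labelled replicate 2. Per kilobase of gene and 1000000 assigned fragments these were 48513, 86782, 30565 and 32039. Among all genes per base it stood at rank 1 in both unlabelled libraries and at rank 3 in both labelled libraries, behind mitochondrial genes. RN7SL3 held 12696, 13984, 10318 and 12659 fragments, or 5196, 8103, 3679 and 3446 on that scale. Among nuclear genes per base it stood at rank 3 in 3 libraries and at rank 2 in labelled replicate 1.

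RN7SL1 took 1.45% of assigned fragments in the first unlabelled library, with a 95% Wilson interval of 1.44 to 1.46%, and 2.59% in the second (2.58 to 2.61%). Labelled replicates 1 and 2 gave 0.914% (0.908 to 0.920%) and 0.958% (0.953 to 0.963%). Unlabelled replicate 2 was the highest by far, both labelled libraries were lower than both unlabelled ones, and the labelled pair lay close together. How many genes of the table had this order by share was not counted. The means were 2.02% ± 0.809 (SD, n = 2) and 0.936% ± 0.0312 (SD, n = 2). The difference between them, -1.09 percentage points, was smaller than the gap between the unlabelled libraries. The two-sided exact permutation test gave p = 0.333, which is as low as its 6 arrangements can go.

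RN7SL3 was likewise lower in the labelled libraries. Its shares were 0.155% and 0.242% without D-amino acid, against 0.110% and 0.103% with it. Its means were 0.199% ± 0.0615 and 0.107% ± 0.00493 (SD, n = 2 each), and the exact permutation p was again 0.333. The Wilson intervals reflect counting error alone. They take each fragment as independent, although no molecular identifiers separate PCR copies. These intervals were far narrower than the gap between the unlabelled libraries for both genes.

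The shares were also taken with mitochondrial transcripts left out, since these differed between the groups. Of fragments outside the mitochondrial chromosome, RN7SL1 took 1.595% and 2.90% in unlabelled and 1.25% and 1.39% in labelled libraries. For RN7SL3 these shares were 0.171% and 0.271% against 0.151% and 0.149%. The groups still did not overlap, an order that was not counted over all genes on this scale. The ratio of unlabelled to labelled means went from 2.16 to 1.70 for RN7SL1 and from 1.87 to 1.47 for RN7SL3.

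**Figure D2:**
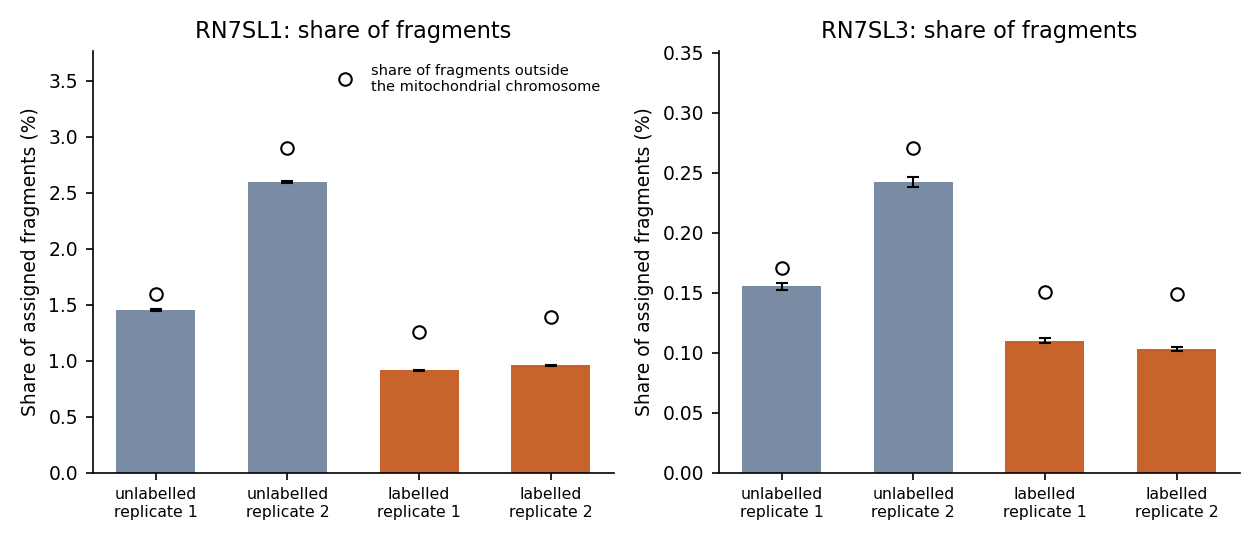
Share of assigned fragments in percent (bars, y axis starting at 0) for RN7SL1 (left) and RN7SL3 (right) in each of the 4 libraries, with 95% Wilson intervals as error bars and, as open circles, the share of fragments outside the mitochondrial chromosome. For RN7SL1 unlabelled replicate 2 stands at 2.59%, against 1.45% in unlabelled replicate 1 and under 1% in both labelled libraries.

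The same order was seen after TMM scaling, which sets the bulk of genes level between libraries. RN7SL1 stood at 13202 and 22597 scaled CPM in unlabelled and at 9996 and 11323 in labelled libraries. The log2 fold change, labelled over unlabelled, was -0.75 ± 0.39 (SE), with an edgeR quasi-likelihood adjusted p of 0.481 over 18973 genes. RN7SL3 stood at 1414 and 2110 against 1203 and 1218 scaled CPM, with a log2 fold change of -0.54 ± 0.23 and an adjusted p of 0.404. For both genes all unlabelled values exceeded all labelled values, as they did for 22.4% of all genes tested. 0 of the 2 tested genes passed the adjusted threshold of 0.05, which 0.285% of all genes did in either direction and 0.0158% did as lower in labelled libraries. DESeq2 also passed 0 of 2 (background 0.432%). Before adjustment, 1 of the 2 genes, RN7SL3, had an edgeR p under 0.05, as did 5.88% of all genes in the lower direction.

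The size of this difference rested on 1 library. Without unlabelled replicate 2 the log2 fold changes were -0.30 for RN7SL1 and -0.22 for RN7SL3. Without unlabelled replicate 1 they were -1.05 and -0.77. For these genes, fits that left 1 library in a group were read by size alone, not by adjusted p. Among the fits of all 4 libraries, both genes passed the edgeR threshold only with scaling by library size alone (-1.12 and -0.90). That scaling moved the median of all genes to -0.37, and 2744 of 18973 genes were called with it, 2675 of them lower. Relative to that median, RN7SL1 and RN7SL3 stood at -0.75 and -0.54. With no filter on low counts RN7SL1 passed (edgeR adjusted p 0.00165) and RN7SL3 did not (0.110), where 302 of 39689 genes were called. The sign was negative for both genes in all 13 alternative fits. Those that left out 1 library could hardly change it, since all unlabelled values exceeded all labelled values. The others rescaled, filtered or refitted the same 4 libraries.

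**Figure D3:**
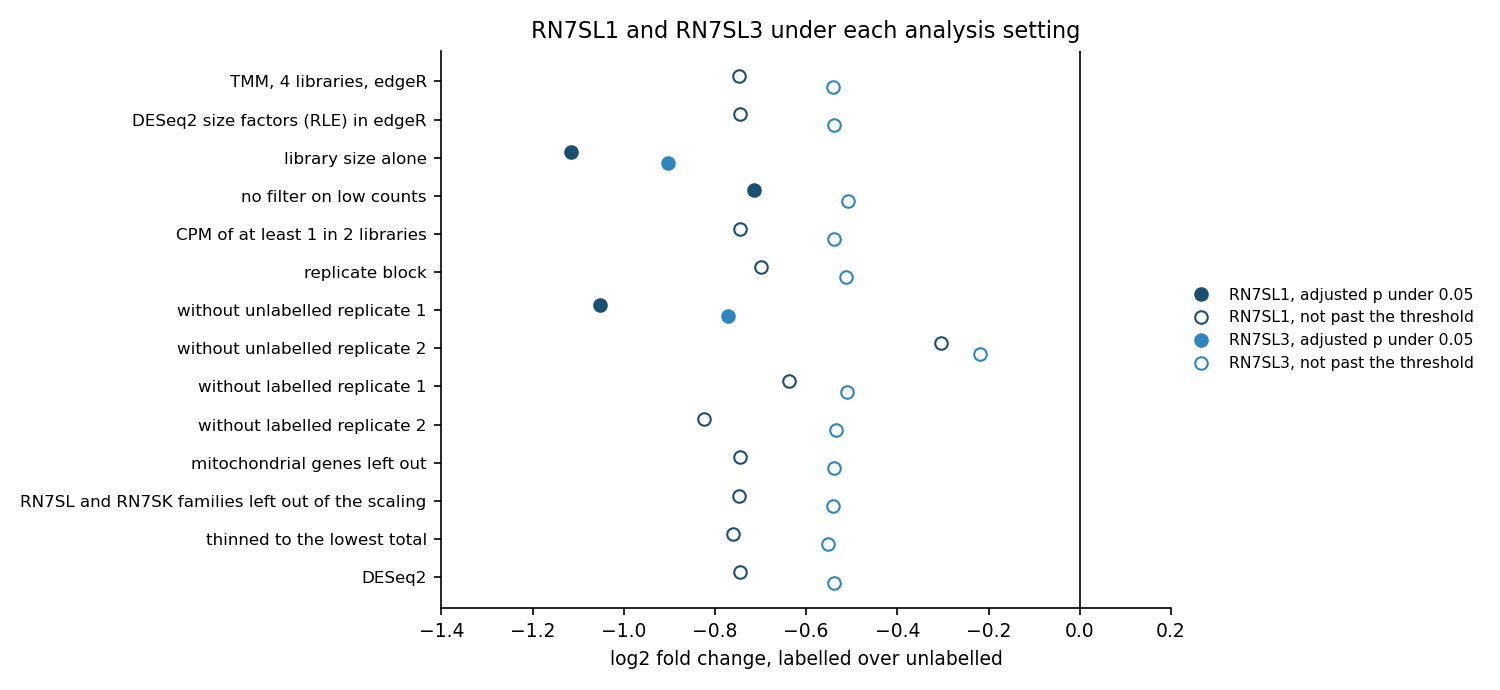
Log2 fold change of labelled over unlabelled libraries (x axis) for RN7SL1 (dark blue) and RN7SL3 (light blue) under each analysis setting (y axis). Filled points have an adjusted p under 0.05, which is not read for fits that leave out 1 library. Every point lies below 0, from -1.12 with library size alone to -0.22 for RN7SL3 without unlabelled replicate 2.

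Among the 45 genes with a mean of at least 1000 scaled CPM, a cut chosen after the values were seen, RN7SL1 and RN7SL3 stood at ranks 2 and 3 from the lowest log2 fold change. The lowest belonged to RMRP, the RNA of the endoribonuclease RNase MRP and another product of RNA polymerase III. Among all 18973 genes tested, RN7SL1 was at rank 914 and RN7SL3 at rank 1773 from the lowest, so many less abundant genes had lower values.

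The unlabelled replicates differed from each other about as much as the groups did. RN7SL1 was 1.71-fold higher in unlabelled replicate 2 than in replicate 1 after TMM scaling, and RN7SL3 was 1.49-fold higher. The 95% counting intervals of these ratios were 1.70 to 1.72 and 1.46 to 1.53. A level at least 1.5-fold higher in replicate 2 was found for 12.3% of all genes tested, and 19.1% differed by that much in either direction. RN7SL1 lay past this fold and RN7SL3 just under it. Between the labelled replicates RN7SL1 differed by 1.13-fold and RN7SL3 by 1.01-fold (interval 0.986 to 1.04), and 10.2% of all genes differed by at least 1.5-fold. With 1 library on each side there is no test of these ratios.

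Within a library the RN7SL genes can be set against each other without any scaling. For each RN7SL3 fragment there were 9.34 and 10.7 RN7SL1 fragments without D-amino acid, against 8.31 and 9.30 with it. The means were 10.0 ± 0.971 and 8.80 ± 0.700 (SD, n = 2 each; exact permutation p = 0.333). Unlabelled replicate 1 and labelled replicate 2 were almost level, and unlabelled replicate 2 again stood highest.

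Most fragments of the wider 7SL family went to the functional genes. The table has 677 RN7SL pseudogenes, truncated or diverged copies of 7SL, of which 372 had a fragment in any library. Together they held 2908, 2959, 2758 and 2895 fragments, or 2.17%, 1.77%, 2.79% and 2.17% of the family total. RN7SL4P (chromosome 3) alone held 44.5 to 49.3% of these pseudogene fragments. It aligned to RN7SL1 with 85.7% identity. Of its 246 windows of 50 bases, 143 recurred in RN7SL2 and 84 in RN7SL1. RN7SL5P aligned to RN7SL1 with 85.5% identity and shared more such windows with RN7SL1 than RN7SL4P did. RN7SL4P and RN7SL5P together held 53.6 to 58.8% of the pseudogene fragments. The counts of both may include fragments of the functional genes, and this was not tested.

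The RN7SL pseudogenes, summed, were also highest in unlabelled replicate 2. Most of this sum came from RN7SL4P and RN7SL5P, and whether it is separate from the functional genes was not tested. The sum stood at 324 and 446 scaled CPM in unlabelled and at 322 and 278 in labelled libraries. Unlabelled replicate 1 was nearly level with labelled replicate 1. The edgeR log2 fold change of the sum was -0.36 ± 0.18 (adjusted p 0.457), and without unlabelled replicate 2 it was -0.11. Of the 32 RN7SL pseudogenes tested, 25 had a log2 fold change below 0, as did 52.0% of all genes. Their median was -0.26, and -0.16 without unlabelled replicate 2, against -0.01 for all genes. edgeR and DESeq2 each called 0 of the 32, and 4 were lower at an unadjusted edgeR p under 0.05, against 5.88% of all genes. RN7SL4P had -0.39 ± 0.17 and RN7SL5P, on chromosome 9, -0.32 ± 0.15 (adjusted p 0.422 and 0.451). Without unlabelled replicate 2 these were -0.15 and -0.16. RN7SL381P, RN7SL153P and RN7SL515P had the smallest p of the list, with -1.83, -2.11 and -1.34 (adjusted p 0.161, 0.236 and 0.382), at means of 1.24 to 2.86 scaled CPM in unlabelled libraries. RN7SL674P had -0.67 (adjusted p 0.505), and -0.27 without that library.

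RN7SK itself had no counts, but its pseudogenes did. Of 293 RN7SK pseudogenes, 110 had a fragment and together they held 1133, 849, 728 and 848. After scaling the sum stood at 126 and 128 CPM in unlabelled and at 84.9 and 81.6 CPM in labelled libraries. Here the unlabelled pair lay close together, with a ratio of 1.02 (counting interval 0.929 to 1.11), in contrast to 1.38 for the RN7SL pseudogenes (1.31 to 1.45). The edgeR log2 fold change of the sum was -0.61 ± 0.12 with an adjusted p of 0.0902, so it did not pass the threshold. It was -0.60 without unlabelled replicate 2 and -0.59 without unlabelled replicate 1.

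The largest contributor was RN7SKP203 on chromosome 2, a copy identical to RN7SK at 289 of 340 aligned positions, of whose 283 windows of 50 bases 94 recur in RN7SK. It stood at 45.7 and 32.1 scaled CPM in unlabelled and at 23.1 and 19.4 in labelled libraries. Its log2 fold change was -0.89 ± 0.17, with an adjusted p of 0.0822 in edgeR and 0.0444 in DESeq2. RN7SKP255 had -0.84 (adjusted p 0.206), RN7SKP80 -0.72 (0.361; -0.20 without unlabelled replicate 2) and the scarce RN7SKP180 -2.34 (0.128). In the unlabelled pair RN7SKP80 stood at 10.7 and 20.4 scaled CPM, opposite in direction to RN7SKP203. The level sum thus combines members that differed between these replicates, and 8 of the 14 tested were higher in replicate 2. Of the 14 tested, edgeR called 0 and DESeq2 1, which was RN7SKP203, where DESeq2 called 0.432% of all genes. At an unadjusted edgeR p under 0.05, 6 of the 14 were lower, against 5.88% of all genes, and the median was -0.54. How many of these fragments were copied from RN7SK was not tested.

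**Figure D4:**
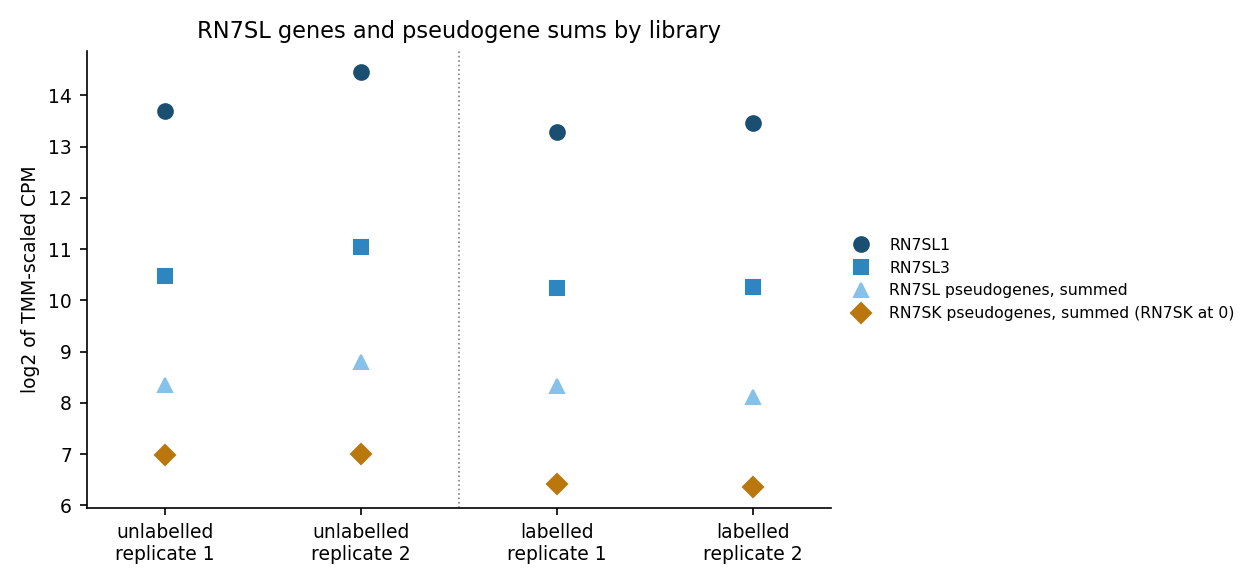
Log2 of TMM-scaled CPM (y axis) for RN7SL1, RN7SL3, the summed RN7SL pseudogenes and the summed RN7SK pseudogenes in each library (x axis). The RN7SL points are highest in unlabelled replicate 2, whereas the RN7SK pseudogene sum is level in the unlabelled pair (126 and 128 CPM) and lower in both labelled libraries.

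Genes around the RN7SL loci were also read. RN7SL1 lies inside the span of RPS29, a ribosomal protein gene on the opposite strand, but in none of its exons. RPS29 stood at 279 and 373 scaled CPM in unlabelled and at 167 and 215 in labelled libraries, the same order of libraries as RN7SL1, and edgeR gave -0.77 ± 0.18 (adjusted p 0.144). Counting ignored strand, so unspliced RPS29 fragments at this place cannot be told apart from RN7SL1. RPS29 held 1429 to 2504 fragments in a library over all its exons, against 85725 to 149766 for RN7SL1, and its part in the RN7SL1 values was not tested. NEMF, next to RN7SL3 on the same strand, stood at 41.5, 50.1, 49.0 and 47.7 scaled CPM, a log2 fold change of 0.08 ± 0.13.

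The protein partners of 7SL and 7SK and the machinery that makes these RNAs were read from lists. With library size alone the medians of the 5 lists of protein genes turned negative, to between -0.34 and -0.25, as the median of all genes moved to -0.37. Of the 8 genes for the proteins of the particle and its receptor, edgeR and DESeq2 called 0, and 1 was higher at an unadjusted edgeR p under 0.05, against 5.67% of all genes. The median of the list was 0.02, and -0.06 without unlabelled replicate 2. SRPRB, the membrane anchor of the receptor, stood at 79.5 and 57.2 scaled CPM in unlabelled and at 85.5 and 89.7 in labelled libraries, which gave 0.35 ± 0.15 (adjusted p 0.416). SRP19, which binds 7SL directly during assembly, had -0.21 ± 0.14, and SRP68, part of a heterodimer with SRP72, had 0.18 ± 0.13. Without unlabelled replicate 2 the values were 0.15 for SRPRB, -0.06 for SRP19 and 0.09 for SRP68.

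The list of the Sec61 channel and its helpers, which receive the targeted ribosomes, had 11 members. edgeR and DESeq2 called 0 of them, and 2 were lower at an unadjusted edgeR p under 0.05, against 5.88% of all genes. The median was 0.01, and -0.12 without unlabelled replicate 2. SSR4, a subunit of the translocon-associated complex, had -0.55 ± 0.13 (adjusted p 0.144). The channel subunits SEC61G and SEC61B had -0.31 ± 0.14 and -0.26 ± 0.13 (adjusted p 0.429 and 0.481), and -0.20 and -0.36 without that library.

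Of 7 genes for the 7SK particle and P-TEFb, 6 were tested. edgeR and DESeq2 called 0, and 2 were higher at an unadjusted edgeR p under 0.05, against 5.67% of all genes. The median was 0.07, and 0.19 without unlabelled replicate 2. HEXIM1, the inhibitor that 7SK brings to the kinase, stood at 50.9 and 39.8 against 61.7 and 63.1 scaled CPM, which gave 0.45 ± 0.14 (adjusted p 0.303). CDK9, the kinase, stood at 27.4 and 24.6 against 32.7 and 36.4, which gave 0.41 ± 0.14 (adjusted p 0.313). LARP7, which binds the 3′ end of 7SK, had 0.15 ± 0.13. HEXIM1 had 0.30 without that library.

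The machinery that makes and protects these RNAs showed no called gene. Of 11 RNA polymerase III subunit genes, edgeR and DESeq2 called 0 and 0 had an unadjusted edgeR p under 0.05. The median was 0.08, with POLR3B at 0.24, CRCP at 0.22 and POLR3G at 0.21. Of 21 genes for polymerase III factors and small RNA chaperones, both tools again called 0, and 2 were higher at an unadjusted edgeR p under 0.05, against 5.67% of all genes. The median was 0.11, and 0.04 without unlabelled replicate 2. SSB, the La protein that binds the 3′ ends of new polymerase III transcripts, had 0.50 ± 0.15 (adjusted p 0.277). The promoter factor ZNF143 had 0.31 ± 0.14 (0.424) and SNAPC5 had 0.37 ± 0.17 (0.437).

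Few other RNA polymerase III RNAs could be compared. Of 17 listed, 16 were in the table, 3 were at 0 in all libraries and 3 were tested. RMRP stood at 2377 and 2359 scaled CPM in unlabelled and at 937 and 1279 in labelled libraries, so unlike RN7SL1 its unlabelled pair was level. Its log2 fold change was -1.10 ± 0.22, with an adjusted p of 0.0936 in edgeR and 5.43e-08 in DESeq2. BCYRN1, the BC200 RNA whose 5′ part is related to 7SL, stood at 16.6 and 28.7 against 12.6 and 19.3 scaled CPM, again highest in unlabelled replicate 2. Its log2 fold change was -0.47 ± 0.25 (adjusted p 0.498), and -0.03 without unlabelled replicate 2. The vault RNA VTRNA1-3 had -0.62 ± 0.45 (adjusted p 0.620). edgeR called 0 of the 3, 1 was lower at an unadjusted p under 0.05 (5.88% of all genes) and DESeq2 called 1 (0.432%), in both cases RMRP.

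Genes with a profile most like that of the summed RN7SL genes were found by the Euclidean distance between log2 CPM values centred on each gene's mean over the 4 libraries, among 12648 genes with a mean of at least 5 CPM. The 5 nearest were GPT, ENSG00000268218, UCKL1-AS1, ENSG00000286559 and ANKRD36B, at distances of 0.074 to 0.10 log2 units. ANKRD36B, for instance, stood at 37.5 and 66.4 against 28.9 and 30.3 scaled CPM. In all, 565 of the 12648 genes lay within 0.5 log2 units, so the 5 named are a small part of the genes with a similar profile. How many genes lie as near to other profiles was not counted.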

How the data were processed

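The authors deposited 1 table of raw fragment counts for each gene and 1 table of alignment counts by assignment status. Per the file headers, fragments were counted with featureCounts 1.6.4 on GENCODE 44 exons summed by gene, as read pairs with both ends mapped, with no strand, multi-mapping or multi-overlap option. Per the submitters' processing notes, the tools were STAR 2.7.9a, featureCounts and DESeq2 1.42.0, with the build GRCh38. Duplicate removal and read length are not given in the sources used here. The Length column, summed exon bases, was used for levels per length.

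All 62700 gene IDs were paired with symbols. The counts were tested with edgeR 4.0.16 in R 4.3.3 (filterByExpr, TMM, glmQLFit, glmQLFTest, Benjamini-Hochberg over 18973 genes, threshold 0.05), with 4 libraries in 1 fit. The SE was taken from the fold change and its F statistic (F is the squared ratio of the change to its SE). DESeq2 1.42.0 was an alternative. Shares were compared by exact permutation in Python 3.11.15, with 95% Wilson intervals from SciPy 1.17.1. Sequences came from GENCODE 29 transcripts, also on GRCh38, and were aligned with Biopython 1.88. The RN7SL sequences are not reported here. The main edgeR functions were run separately on simulated counts with known fold changes, where only the median estimates were checked. The fits of summed genes and the SE were not part of that check. The permutation planned for RN7SK could not be run, since all its values are 0.

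The members, lists and rules were chosen with earlier results of these data known. Named genes were the members, the 3 tested genes with the smallest p in each list and up to 5 called in each direction (there were 0), other RNA polymerase III RNAs with a mean of at least 5 CPM, the 3 most abundant pseudogenes of each kind and the 5 genes of nearest profile. Lists covered SRP proteins, the Sec61 channel, the 7SK particle, RNA polymerase III subunits, its factors and chaperones, its other RNAs, both pseudogene families, and markers of HEK293 cells, blood, fibroblasts, endothelium and liver. RPS29, NEMF and ENSG00000282885 were named for their position.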

Additional observations from a re-analysis of the deposited data

How the results depend on the processing

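The log2 fold changes of RN7SL1, RN7SL3 and the RN7SL genes summed were below 0 in all 40 alternative fits. The sum contains the single genes and the fits reuse the same libraries, so this agreement was largely fixed in advance. Among the fits of all 4 libraries, RN7SL1, RN7SL3 and the sum passed the adjusted threshold with library size alone, at -1.12, -0.90 and -1.10. This made 2 tested genes called in place of 0. With no filter on low counts RN7SL1 and the sum passed at -0.71 and -0.69, giving 1 called gene. Leaving out 1 library at a time gave -1.05 to -0.30 for RN7SL1, -0.77 to -0.22 for RN7SL3 and -1.03 to -0.30 for the sum. The extremes were the fits without unlabelled replicates 1 and 2. A group left with 1 library was assumed to vary like the other. Over all genes, 54 were called (51 higher, 3 lower), against 2744 with library size alone (69 higher, 2675 lower), 302 with no filter, 82 with DESeq2, 30 without mitochondrial genes and 58 to 3985 with 1 library left out. The causes were not tested.

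The replicate block gave -0.70 for RN7SL1, -0.51 for RN7SL3 and -0.68 for the sum, with 0 tested genes called and 236 genes called over all. Deviations of same-numbered libraries had a correlation of -0.07 across genes, and the labels tie the numbers to no shared culture.

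The summed share of the RN7SL genes differed by -1.18 percentage points, and by -1.80 to -0.56 with 1 library left out. The log2 ratio of unlabelled replicate 2 to replicate 1 for the sum was 0.76, and 0.82 with library size alone. Counting error was small for RN7SL1 and RN7SL3.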

Other observations

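RN7SL2 and RN7SK were not alone in losing their counts to an overlapping record. In the annotation used for counting, 2633 genes had every exon base inside exons of other genes on either strand. For 2235 of them 1 other gene held all these bases, and 0 of the 2235 had a fragment in any library. For the other 398 several genes did so together, and 82 of those had fragments, at most 20 in a library. Among the remaining 60067 genes, 34.1% were at 0. RPPH1, the RNA of RNase P, and the vault RNA VTRNA1-1 were also wholly covered and at 0, and VTRNA2-1, with 78.9% of its bases covered, was at 0 too. Of the other polymerase III RNAs listed, none of the U6 genes held more than 16 fragments in a library and none of the Y RNA genes more than 4.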
